A study of Schizosaccharomyces pombe with 4 samples.

Results

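The comparison set 2 deletions of the cleavage and polyadenylation factor (CPF) of fission yeast, swd22 deletion and ssu72 deletion, against deletion of clr4. Its members were chosen by genotype label, 3 of the 4 libraries of the series, and the library labelled wild type entered no difference. Each genotype was 1 library of total RNA from a log-phase culture of Schizosaccharomyces pombe in rich medium, held at 18 °C for 3 days. The labels name no strain background, mating type or marker for any of these cultures. The series title asks what CPF contributes to heterochromatin and silencing, and this comparison asks where the transcripts of cells without a CPF subunit differ from those of cells without the enzyme of heterochromatin itself.

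CPF cuts nascent transcripts, adds the poly(A) tail and helps RNA polymerase II to stop. Swd22 is a WD-repeat subunit and Ssu72 a phosphatase that acts on the tail of the polymerase, and both belong to the phosphatase module of CPF. Clr4 is the methyltransferase that places the lysine 9 mark on histone H3 at centromeres, telomeres and the mating-type region, and its loss is known to release transcripts of the pericentromeric repeats and of the telomere-linked helicase genes. In fission yeast, termination factors are also known to act on the phosphate genes, where upstream noncoding transcription keeps pho1, pho84 and tgp1 low when phosphate is plentiful.

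The deposited values were log2 ratios with p-values for 7015 features, each library set against 1 further library whose name is missing from the files and which is called the unnamed reference library here. Read counts could be recovered from them, and the libraries held 19630981 reads (swd22 deletion), 24005944 reads (ssu72 deletion) and 22839463 reads (clr4 deletion). A difference below is the log2 ratio of a CPF deletion to the clr4 deletion on the scale of library totals, and a mean difference is the mean over both CPF deletions. A feature was measured where at least 1 of the 3 libraries held at least 10 reads. It was called higher or lower where the mean difference reached 2-fold and both CPF deletions lay on the same side of the clr4 deletion. With 1 library per genotype there was no test and no replicate check, and intervals in brackets are 95% Clopper-Pearson intervals that cover counting error only. The 2 CPF deletions are different genotypes and not replicates, and every difference shares the single clr4 library.

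Of the deleted genes only ssu72 was nearly without reads in its own deletion. The gene ssu72 held 16 reads in the ssu72 deletion, 488 in the swd22 deletion and 484 in the clr4 deletion. The gene swd22 held 281 reads in the swd22 deletion, 735 in the ssu72 deletion and 787 in the clr4 deletion, which is a lower level in its own deletion but not an absence. Where the remaining reads lie was not tested. For clr4 the reads were 1235 in the swd22 deletion, 1445 in the ssu72 deletion and 1645 in the clr4 deletion. Its feature spans 4492 bases and overlaps another gene, so these reads do not check the clr4 label.

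Across the genome the CPF deletions differed from the clr4 deletion in a small set of features. Of 6461 measured features, 128 were called higher (1.98%) and 179 lower (2.77%), or 307 either way (4.75%), and the median mean difference over all of them was 0.036. Coding features gave 60 higher (1.19%) and 94 lower (1.86%) of 5055. Noncoding and antisense features gave 68 higher (4.84%) and 85 lower (6.05%) of 1406. Both CPF deletions lay on the same side of the clr4 deletion in 5054 features (78.2%), which they would tend to do because both are set against the same library. Each of them was at least 2-fold from the clr4 deletion on the same side in 74 of the higher features (1.15% of those measured) and 108 of the lower ones (1.67%). Their differences lay within 1 log2 unit of each other in 115 of the 128 higher and 140 of the 179 lower features. Of the lower features 39 reached 10 reads only in the clr4 deletion, and of the higher ones 19 only in a CPF deletion.

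**Figure D1:**
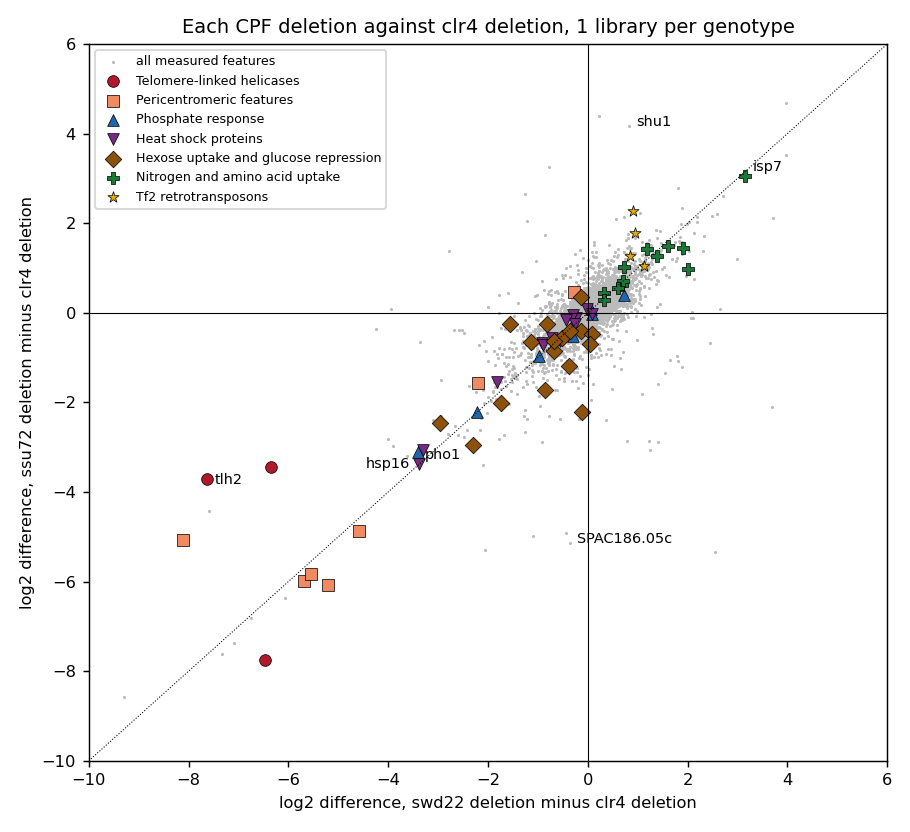
Log2 difference of the swd22 deletion from the clr4 deletion (x axis) and of the ssu72 deletion from the clr4 deletion (y axis), 1 library per genotype, for 6461 measured features, with a count of 0 entered as 0.5 reads. Coloured symbols are 7 gene lists and the dotted line marks equal differences. Helicase and pericentromeric features lie at the lower left, phosphate and heat shock genes near the dotted line, and shu1 and SPAC186.05c differ mainly in the ssu72 deletion.

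Set against the unnamed reference library, the lower and the higher calls looked different. The strain and growth of that library are not known. Of the 94 coding features lower in the CPF deletions, the clr4 deletion was at least 2-fold above the unnamed library in 74 (78.7%), and both CPF deletions were at least 2-fold below it in 7 (7.45%). Of the 60 coding features higher in the CPF deletions, both CPF deletions were at least 2-fold above the unnamed library in 45 (75.0%), and the clr4 deletion was at least 2-fold below it in 6. Among the lower coding calls the median deposited log2 ratios were 0.58 in the swd22 deletion, 0.42 in the ssu72 deletion and 2.44 in the clr4 deletion. Among the higher ones they were 1.73, 1.78 and 0.37 in the same order of genotypes. Against that library, most lower coding calls were thus features that stood high in the clr4 deletion. Most higher coding calls were features that stood high in both CPF deletions. The calls were chosen by the difference between these same libraries, and the shares over all coding features were not counted. The values therefore only describe the calls.

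**Figure D2:**
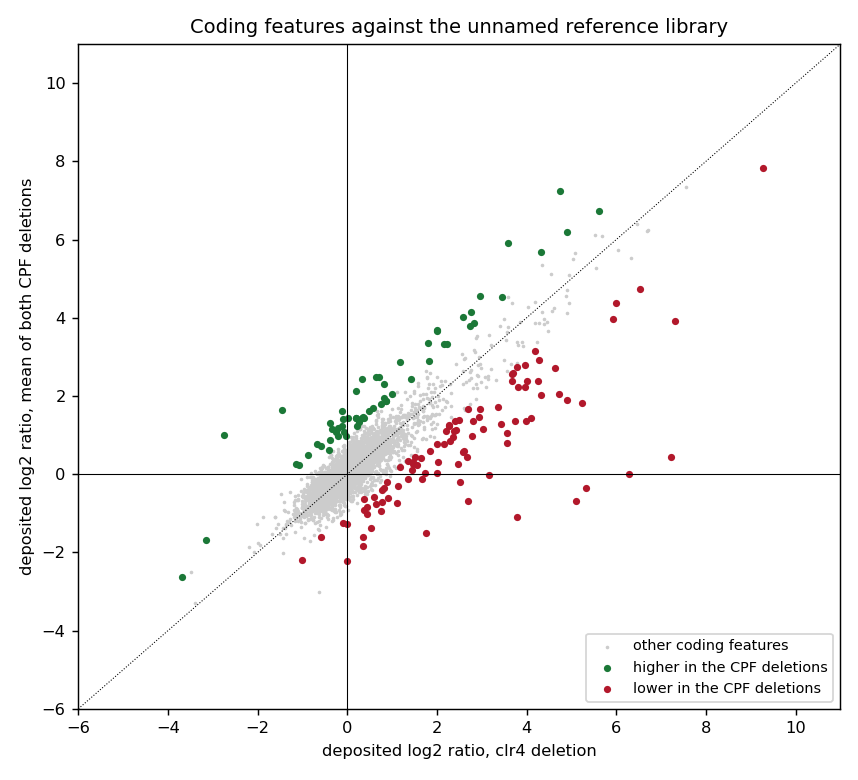
Mean deposited log2 ratio of both CPF deletions to the unnamed reference library (y axis) against that of the clr4 deletion (x axis) for 5055 coding features. Green points are the 60 called higher and red points the 94 called lower in the CPF deletions; the dotted line marks equal ratios. Most red points lie to the right of 0 on the x axis and most green points above 0 on the y axis.

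The telomere-linked helicase genes and most measured pericentromeric RNAs were far lower in the CPF deletions than in the clr4 deletion. In the mating-type region only 3 of 21 features were measured, the ribosomal protein gene rpp202, the proteasome gene rpt6 and SPBC23G7.14. None of them was called (median 0.66). As the other features of that region were not measured, these 3 cannot show whether its silenced part differed. The gene tlh2 (chromosome II, 4526885 to 4532899), which encodes a RecQ-type helicase at the telomere, held 20 reads in the swd22 deletion and 370 in the ssu72 deletion, against 4618 in the clr4 deletion. Its differences were -7.63 (-8.35 to -7.004) for swd22 and -3.71 (-3.87 to -3.56) for ssu72. The 2 CPF deletions were both far below the clr4 deletion and yet apart, with the ssu72 deletion above the swd22 deletion. The unnamed library held 115 reads of tlh2 and lay between them. The truncated helicase gene SPAC212.06c showed the same order, with 7 reads in the swd22 deletion, 65 in the ssu72 deletion and 668 in the clr4 deletion. The gene tlh1, at the left end of chromosome I, held 1 read in the swd22 deletion, 0 in the ssu72 deletion and 103 in the clr4 deletion, which makes the ssu72 deletion at least 36.1-fold lower against a floor of 3 reads. The genes tlh1 and tlh2 are near-identical copies, so the split of reads between them is uncertain. Leaving out the swd22 deletion moved the median of these 3 measured genes to -3.71, against -5.67 with both. As tlh1 was measured only through the clr4 deletion, where it was high, the list's count and median are a description.

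Of 30 pericentromeric features 7 could be measured. On chromosome I, SPNCRNA.231 held 0 reads in the swd22 deletion, 5 in the ssu72 deletion and 160 in the clr4 deletion, so the swd22 deletion was at least 45.8-fold lower. SPNCRNA.234 held 4 reads in each CPF deletion and 218 in the clr4 deletion. On chromosome II, SPNCRNA.373 held 6 reads in the swd22 deletion, 4 in the ssu72 deletion and 256 in the clr4 deletion, a mean difference of -5.63. For these 3 RNAs the CPF deletions held at most 6 reads. SPNCRNA.232 held 0 reads in both CPF deletions and 30 in the clr4 deletion, and SPNCRNA.364 at most 4 reads in both CPF deletions and 14 in the clr4 deletion. SPNCRNA.359 held 30 and 57 reads in the swd22 and ssu72 deletions, against 160 in the clr4 deletion. SPNCRNA.1172 was not called, with 25, 51 and 35 reads in the swd22, ssu72 and clr4 deletions. The list counts 6 lower and none higher of the 7, with a median of -5.63, or -3.25 with counts of 0 at the floor. As 5 of the 7 were measured only through the clr4 deletion, that count and median describe the reads and support nothing further.

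The shift towards lower values lay within 50 kb of the chromosome ends, while calls in both directions stayed frequent between 50 and 100 kb. Within 50 kb of an end of chromosome I or II, 20 of 41 measured features (of 81) were lower and 2 higher, with a median of -0.81. That median was -1.50 without the swd22 deletion and -0.69 without the ssu72 deletion. Of the 41, 9 were measured only through the clr4 deletion, and 11 of the 30 that no single side carried past the read limit were lower. Between 50 and 100 kb, 12 of 86 were lower (14.0%) and 11 higher (12.8%), with a median of 0.084. Among these calls are pho1, pho84, ecl3, dak2 and ght3 (lower) and SPBPB2B2.01, aes1, put4, shu1 and SPBC8E4.02c (higher). They are given again below, so these groups share members. Over all features 2.77% were lower and 1.98% higher. Of the 86, 4 were measured only through the clr4 deletion and 2 only through a CPF deletion, and the 80 others gave 8 lower and 11 higher calls. The 3 ends that held lower features within 50 kb were the left of chromosome I (7 of 13 measured), its right (9 of 13) and the right of chromosome II (4 of 8). On the left of chromosome II none of the 7 measured features was called, and no feature within 20 kb of that end was measured. Features within 50 kb made up 0.635% of the measured features and 11.2% of the lower calls.

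**Figure D3:**
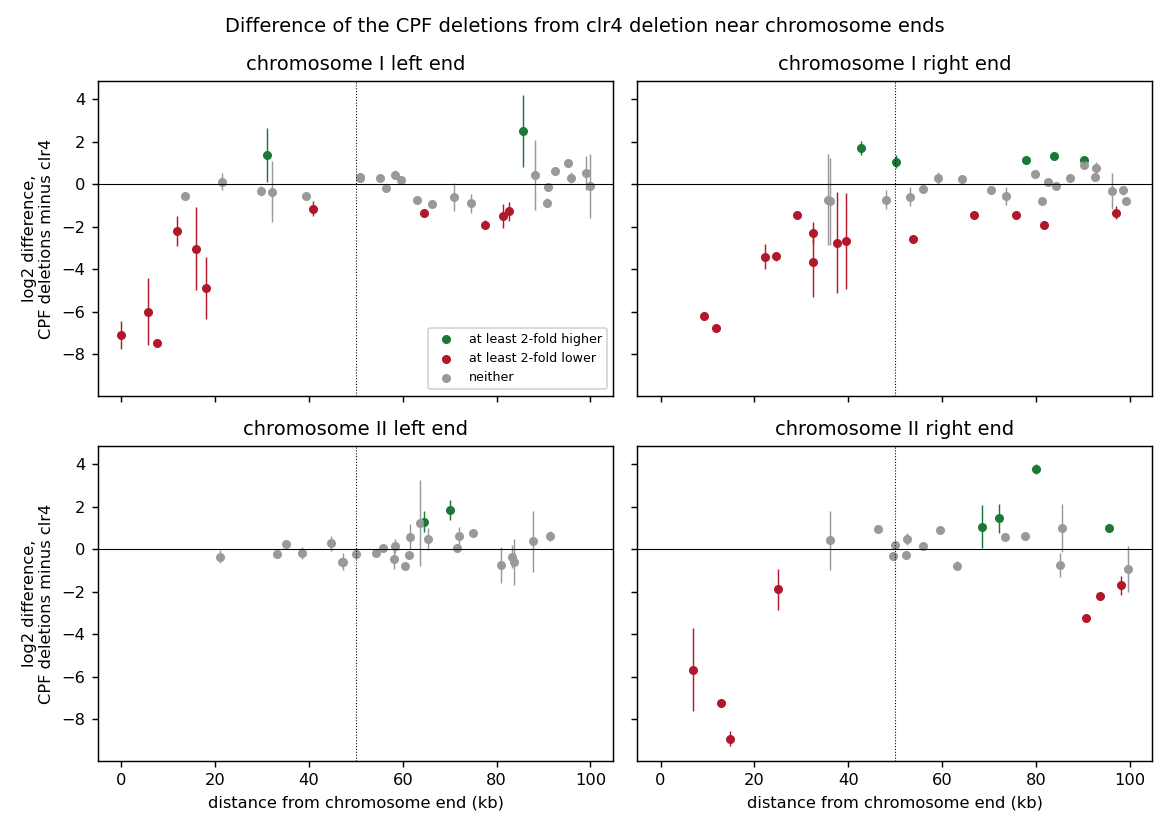
Mean log2 difference of the CPF deletions from the clr4 deletion (points, y axis) by distance from the chromosome end in kb (x axis), with lines joining the values of the 2 CPF deletions; red is called lower, green higher and grey neither. Mean values below -5 lie within 20 kb of an end, at 3 of the 4 ends, while single ssu72 values below -5 also occur further in, at prl61 and SPAC186.05c.

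Reads of single subtelomeric genes are given as a description. SPBCPT2R1.07c, on the right of chromosome II, held 1 read in the swd22 deletion, 2 in the ssu72 deletion and 728 in the clr4 deletion. SPAC750.05c, of a membrane protein family specific to this species and 11.8 kb from the right end of chromosome I, held 6, 7 and 750 reads in the same order of genotypes. Both features were measured only through the clr4 deletion, where they were high. Further in, SPAC750.01, an aldo/keto reductase gene, held 103 reads in the swd22 deletion, 288 in the ssu72 deletion and 1930 in the clr4 deletion. Its neighbour pdc102, a predicted pyruvate decarboxylase gene, held 8 and 13 reads in the swd22 and ssu72 deletions and 114 in the clr4 deletion. In these 4 genes both CPF deletions were far below the clr4 deletion. The unnamed library held 3 reads of SPBCPT2R1.07c, 5 of SPAC750.05c, 12 of SPAC750.01 and 3 of pdc102. For SPAC750.01 both CPF deletions thus stood above that library. Features SPAC212.09c and SPBCPT2R1.10 held at most 4 reads in either CPF deletion, against 94 and 79 in the clr4 deletion. They too were measured only through the clr4 deletion. Of the 2 higher features, SPAC977.18 was high in the swd22 deletion alone, with 325 reads there, 67 in the ssu72 deletion and 60 in the clr4 deletion.

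A run of genes further in on the same chromosome end separated the CPF deletions instead. SPAC186.05c (chromosome I, 5540032 to 5541502), annotated for a role in calcium transport, held 3543 reads in the swd22 deletion and 157 in the ssu72 deletion, against 5298 in the clr4 deletion. Its differences were -0.36 (-0.42 to -0.30) for swd22 and -5.15 (-5.39 to -4.92) for ssu72. The next gene, SPAC186.04c, held 441 reads in the swd22 deletion, 24 in the ssu72 deletion and 690 in the clr4 deletion. On the other side SPAC186.06 held 759 reads in the swd22 deletion and 55 in the ssu72 deletion, against 378 in the clr4 deletion, and the noncoding prl61 held 23, 3 and 112. Thus 2 of these genes counted as lower in both CPF deletions only because the ssu72 deletion pulled the mean, and the swd22 deletion stayed within 2-fold of the clr4 deletion.

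Among the phosphate genes, pho1 and pho84 were far lower in the CPF deletions, and most of the others differed little. The gene pho1 (chromosome II, 4446373 to 4449053), which encodes the secreted acid phosphatase, held 3554 reads in the swd22 deletion and 5367 in the ssu72 deletion, against 44029 in the clr4 deletion, a 9.58-fold lower mean. Its neighbour pho84 (4444125 to 4446200), the phosphate transporter gene, held 3924 and 4828 reads in the swd22 and ssu72 deletions and 21256 in the clr4 deletion. The differences were -3.41 (-3.46 to -3.36) for swd22 and -3.11 (-3.15 to -3.07) for ssu72 at pho1, and -2.22 (-2.27 to -2.17) and -2.21 (-2.26 to -2.17) at pho84. The gene tgp1, the glycerophosphodiester transporter gene, had 801 reads in the swd22 deletion and 981 in the ssu72 deletion, against 1832 in the clr4 deletion, a mean difference of -0.97 that missed the threshold. All 3 were thus lower in both CPF deletions, whose differences lay closer together at pho84 and tgp1 than at pho1. Relative to the unnamed reference library the 3 genes differed, since it held 13054 reads of pho1, 21093 of pho84 and 480 of tgp1.

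Features beside these genes did not move together: SPBC8E4.02c was higher in the CPF deletions, ecl3 was lower and SPNCRNA.1343 differed little. SPBC8E4.02c and ecl3 are typed as coding features and SPNCRNA.1343 as noncoding, so no general shift of noncoding features is shown here. SPBC8E4.02c (chromosome II, 4442574 to 4444191) lies just upstream of pho84 on the same strand and inside the RefSeq lncRNA prt2 (4442542 to 4445970). It held 3786 reads in the swd22 deletion and 4160 in the ssu72 deletion, against 2080 in the clr4 deletion, a mean difference of 1.01. That mean just passed the 2-fold threshold, which the ssu72 deletion alone did not reach. The feature upstream of pho84 was thus high in both CPF deletions and the pho84 feature low. Since prt2 also runs over most of the pho84 feature, reads of that lncRNA and of pho84 cannot be told apart there. The same holds at pho1, where the feature counted by the authors spans both the RefSeq gene pho1 (4447506 to 4449053) and most of its upstream lncRNA nc-pho1 (4446359 to 4448918). Near tgp1 the files give SPNCRNA.1343, which RefSeq annotates as the bidirectional partner of the regulatory lncRNA nc-tgp1, with 834 and 1041 reads in the swd22 and ssu72 deletions and 929 in the clr4 deletion. The divergent neighbour ecl3 (chromosome II, 4441340 to 4441609) held 408 reads in the swd22 deletion, 265 in the ssu72 deletion and 1133 in the clr4 deletion.

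The list counts 2 lower and none higher of 8, with a median of -0.35 against 0.036 over all features. The transcription factor gene pho7, which drives pho1 and tgp1, held 2127 reads in the swd22 deletion, 2439 in the ssu72 deletion and 2348 in the clr4 deletion. The kinase gene csk1 had a mean difference of 0.56, the polyphosphate synthesis gene vtc4 -0.40 and the thiamine-regulated phosphatase gene pho4 -0.29. The related vtc2 was lower, with 6461 and 6407 reads in the swd22 and ssu72 deletions and 16208 in the clr4 deletion. To show the letters that the factor Pho7 is known to recognise, 300 bases before the RefSeq gene start are given for pho1 and tgp1, which it controls. Capitals mark the Pho7-type motif (TCG, any 4 bases, TT, any base, AA, searched on both strands). The sequence is RefSeq ASM294v3, whose gene positions match those in the files.
pho1, chrII:4447206-4447505, plus strand: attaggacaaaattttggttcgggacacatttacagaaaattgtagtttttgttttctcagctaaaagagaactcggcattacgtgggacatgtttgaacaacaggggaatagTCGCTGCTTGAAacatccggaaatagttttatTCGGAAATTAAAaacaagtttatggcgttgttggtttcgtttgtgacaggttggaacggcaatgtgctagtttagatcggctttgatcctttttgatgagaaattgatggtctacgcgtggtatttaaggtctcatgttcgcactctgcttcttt
tgp1, chrII:352412-352711, minus strand: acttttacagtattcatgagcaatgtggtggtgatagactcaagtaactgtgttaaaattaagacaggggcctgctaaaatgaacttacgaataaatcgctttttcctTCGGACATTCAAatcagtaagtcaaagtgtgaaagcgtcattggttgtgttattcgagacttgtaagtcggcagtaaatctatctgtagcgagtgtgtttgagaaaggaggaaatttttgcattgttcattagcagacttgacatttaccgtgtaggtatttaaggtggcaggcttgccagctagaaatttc
The pho1 window holds 2 matches, which start 187 and 155 bases before the gene start, and the tgp1 window 1 match at 192. The motif occurs in 7.04% of 5112 such windows of coding genes, and the same letters are not in the window of pho84.

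**Figure D4:**
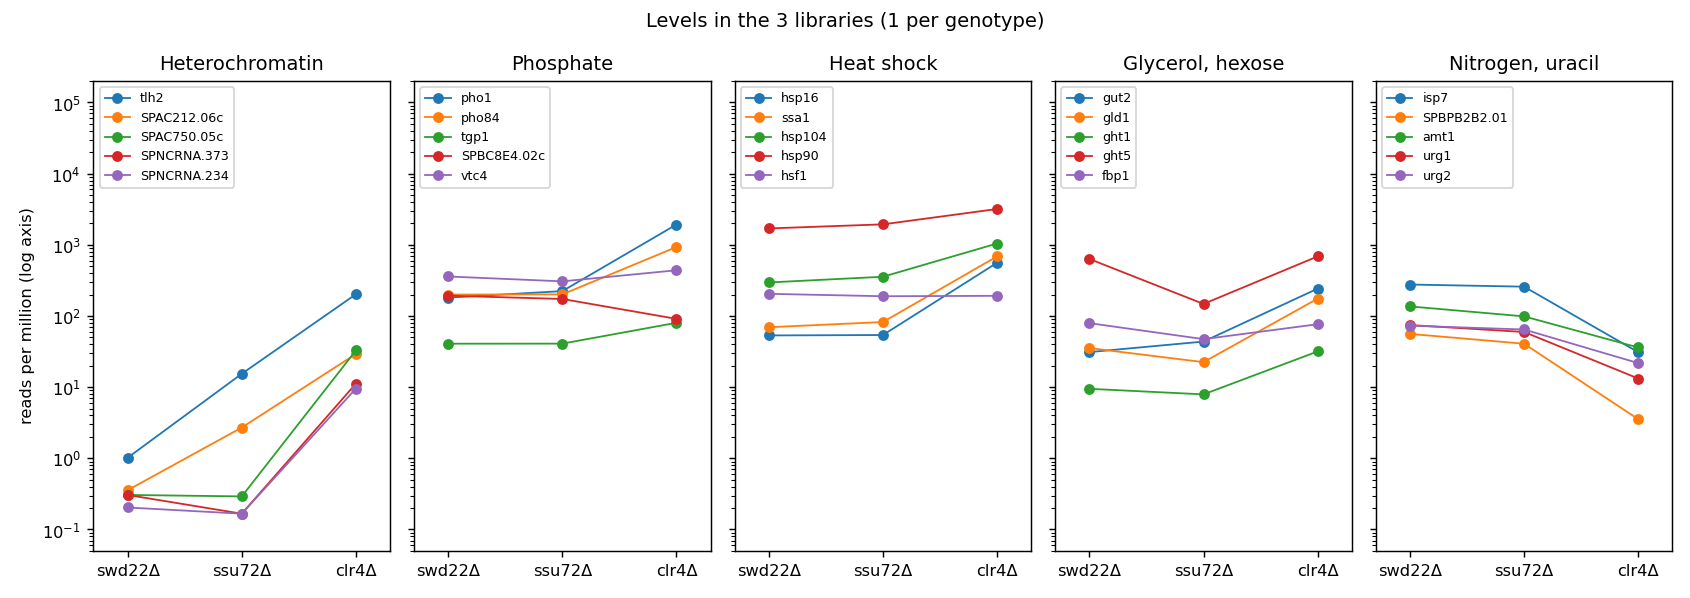
Reads scaled to a common library total (RPM, log axis) in the swd22 deletion, the ssu72 deletion and the clr4 deletion for 5 features of each of 5 groups, 1 library per genotype. Lines join the 3 values of a feature: heterochromatin features, pho1, pho84, hsp16 and ssa1 are highest in the clr4 deletion, SPBC8E4.02c, isp7 and SPBPB2B2.01 are lowest there, and ght5 is low only in the ssu72 deletion.

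Heat shock genes leaned lower, 3 of them strongly. The small heat shock protein gene hsp16 (chromosome II, 2660139 to 2660992) held 1046 reads in the swd22 deletion and 1296 in the ssu72 deletion, against 12765 in the clr4 deletion. The Hsp70 gene ssa1 (chromosome I, 2295580 to 2297981) held 1364 and 1974 reads in the swd22 and ssu72 deletions and 15681 in the clr4 deletion. The disaggregase gene hsp104 held 5805 and 8542 reads in the swd22 and ssu72 deletions and 23816 in the clr4 deletion. Their mean differences were -3.38, -3.18 and -1.68, and in each the CPF deletions lay close together, far below the clr4 deletion. The unnamed reference library held 1968, 1731 and 7169 reads of the 3 genes, nearer to the CPF deletions. The list counts 3 lower (23.1%) and none higher of 13, with a median of -0.59 and a range of -3.38 to 0.039. Over all features 2.77% were lower and 1.98% higher, with a median of 0.036. The factor gene hsf1 held 4019, 4546 and 4383 reads in the swd22, ssu72 and clr4 deletions. The mitochondrial chaperonin gene hsp10 was at 0.039 and the co-chaperone gene mas5 at -0.18.

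Of the noncoding features beside heat shock genes, 2 that were lower with them are given, and the other neighbours were not counted. SPNCRNA.811, opposite to and overlapping ssa1, held 3 reads in the swd22 deletion and 7 in the ssu72 deletion, against 52 in the clr4 deletion. It was thus measured only through the clr4 deletion. SPNCRNA.1540, 39 bases from hsp16 on its strand, held 10 and 5 reads in the swd22 and ssu72 deletions and 50 in the clr4 deletion. How the authors' counting treated strand is not given in the sources used here, so reads of such partners may not be separate. A pair of further stress genes outside the list was also lower, the glyoxylase gene hsp3101 with 961, 910 and 2745 reads in the swd22, ssu72 and clr4 deletions, and the DNAJ-protein gene psi1 with 3245, 4510 and 8508. The windows before the 2 genes with the largest differences are given with the core of the heat shock element, the binding site of the heat shock factor, in capitals (GAANNTTC, which reads the same on both strands).
hsp16, chrII:2660993-2661292, minus strand: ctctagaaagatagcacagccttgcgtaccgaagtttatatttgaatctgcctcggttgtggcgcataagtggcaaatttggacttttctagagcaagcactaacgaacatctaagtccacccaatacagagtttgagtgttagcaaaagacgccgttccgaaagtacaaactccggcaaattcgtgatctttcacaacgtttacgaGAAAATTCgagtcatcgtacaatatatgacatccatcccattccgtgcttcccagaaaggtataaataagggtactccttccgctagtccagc
ssa1, chrI:2297965-2298264, minus strand: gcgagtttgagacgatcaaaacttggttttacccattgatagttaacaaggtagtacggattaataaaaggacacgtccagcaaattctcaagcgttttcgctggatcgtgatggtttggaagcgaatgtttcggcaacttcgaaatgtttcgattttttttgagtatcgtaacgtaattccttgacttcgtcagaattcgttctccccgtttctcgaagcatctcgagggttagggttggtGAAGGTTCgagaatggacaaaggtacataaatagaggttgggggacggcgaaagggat
Each holds 1 match, 93 bases before the hsp16 start and 58 before the ssa1 start. The motif occurs in 11.3% of 5112 windows and is not in that of hsp104.

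Several genes of glycerol and hexose use were lower as well. The list of hexose uptake and glucose-repressed genes counts 5 lower (29.4%) and none higher of 17, with a median of -0.77. The shares over all features were 2.77% lower and 1.98% higher, beside a median of 0.036. The mitochondrial glycerol-3-phosphate dehydrogenase gene gut2 held 610 reads in the swd22 deletion and 1049 in the ssu72 deletion, against 5529 in the clr4 deletion. The glycerol dehydrogenase gene gld1 held 695 and 539 reads in the swd22 and ssu72 deletions and 3996 in the clr4 deletion. Both enzymes feed glycerol into central metabolism, and both genes were more than 4-fold lower in each CPF deletion. The hexose transporter gene ght1 had differences of -1.74 for swd22 and -2.004 for ssu72. Other transporter genes were lower mainly in the ssu72 deletion, ght5 with 12406, 3543 and 15686 reads in the swd22, ssu72 and clr4 deletions and ght3 with 164, 110 and 345. The invertase gene inv1, with a mean difference of -0.27, and the glycolytic gene tdh1, at 0.11, were not called.

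Single genes outside that list were lower too, of which zwf2, dak2 and rsv1 were chosen after their values were seen. The glucose-6-phosphate dehydrogenase gene zwf2 held 250 reads in the swd22 deletion and 279 in the ssu72 deletion, against 1759 in the clr4 deletion. The dihydroxyacetone kinase gene dak2 held 6500 and 9883 reads in the swd22 and ssu72 deletions and 21462 in the clr4 deletion. The transcription factor gene rsv1, which has a role in survival without glucose, held 46, 63 and 188 reads in the swd22, ssu72 and clr4 deletions. The phosphatase gene pyp2, which encodes an inhibitor of the stress kinase Sty1, held 1508 and 1597 reads in the swd22 and ssu72 deletions and 5102 in the clr4 deletion. The core stress list as a whole had a median of -0.23. It held 2 lower genes (pyp2 and hsp16, which is on both lists) and none higher of 23. Of its members 8.7% were thus lower, beside 2.77% over all features. Its highest member, the sulfiredoxin gene srx1, stood at 0.72.

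Many nitrogen and amino acid uptake genes were higher in the CPF deletions. The list counts 6 higher and none lower of 12, with a median of 1.09 against 0.036 over all features, and each of the 12 lay above the clr4 deletion in both CPF deletions. The oxygenase gene isp7 (chromosome I, 4179961 to 4183074), which is known to regulate amino acid uptake, held 5428 reads in the swd22 deletion and 6195 in the ssu72 deletion, against 707 in the clr4 deletion. Its differences were 3.16 (3.05 to 3.27) for swd22 and 3.06 (2.95 to 3.17) for ssu72. The ammonium transporter gene amt1 held 2674 and 2370 reads in the swd22 and ssu72 deletions and 824 in the clr4 deletion, and amt3 held 879, 983 and 334 in the same order of genotypes. The amino acid permease gene isp5 held 428 reads in the swd22 deletion, 258 in the ssu72 deletion and 124 in the clr4 deletion. The proline permease gene put4 had 549 and 618 reads in the swd22 and ssu72 deletions and 246 in the clr4 deletion, and the permease gene per1 had 3425, 4928 and 1744. The third ammonium transporter gene, amt2, had a mean difference of 0.57, the peptide transporter gene ptr2 0.38 and the cationic amino acid transporter gene cat1 0.30.

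The coding feature with the largest difference in this direction was also an amino acid transporter gene. SPBPB2B2.01 (chromosome II, 4457661 to 4459842) held 1099 reads in the swd22 deletion and 978 in the ssu72 deletion, against 81 in the clr4 deletion. The unnamed library held 544 reads of it and 1928 of isp7, and for these 2 genes it lay between the CPF deletions and the clr4 deletion. The 3 genes that follow belong to no list, and urg2 and urh1 were chosen after their values were seen. The gene urg1, for a predicted GTP cyclohydrolase, held 1464 and 1430 reads in the swd22 and ssu72 deletions and 302 in the clr4 deletion. The nearby urg2, for a predicted uracil phosphoribosyltransferase, held 1433, 1550 and 497 reads in the swd22, ssu72 and clr4 deletions, and the uridine ribohydrolase gene urh1 held 2051, 2048 and 660. Here the unnamed library held 25, 123 and 291 reads and lay below the 3 deletions.

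Further single genes were higher, also outside any list, and agp3 and gdh2 were chosen after their values were seen. The dipeptidyl peptidase gene dpe2 held 3796 reads in the swd22 deletion and 5083 in the ssu72 deletion, against 1218 in the clr4 deletion, and agp3, an amino acid transporter gene that overlaps it on the opposite strand, held 1068, 1240 and 454 reads, some of which may be those of its partner. The acetyltransferase gene aca1 held 7783 and 8508 reads in the swd22 and ssu72 deletions and 2507 in the clr4 deletion. The glutamate dehydrogenase gene gdh2 stood at 1.05 and the arginine synthesis gene arg12 at 1.14. The gene aes1, described as an enhancer of RNA-mediated silencing, held 9976 reads in the swd22 deletion, 6413 in the ssu72 deletion and 2360 in the clr4 deletion. The gene start of isp7, the largest difference on the list, is shown with the GATAAG core of GATA factors, which control nitrogen genes in fungi, in capitals on either strand.
isp7, chrI:4183020-4183319, minus strand: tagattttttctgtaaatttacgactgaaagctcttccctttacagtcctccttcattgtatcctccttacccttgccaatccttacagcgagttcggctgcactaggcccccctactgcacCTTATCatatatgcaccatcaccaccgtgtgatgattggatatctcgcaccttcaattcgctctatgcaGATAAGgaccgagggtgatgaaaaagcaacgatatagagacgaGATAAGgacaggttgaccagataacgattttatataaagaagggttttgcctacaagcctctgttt
It holds 3 matches, which start 178, 109 and 66 bases before the gene start, and the motif occurs in 11.7% of 5112 windows.

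Measured retrotransposons and a few iron genes were higher, but less evenly between the CPF deletions. Only 4 of 13 Tf2 elements could be measured, and each was called higher (median 1.23). Over all features 1.98% were called higher and 2.77% lower, with a median of 0.036. Tf2-11 held 1513 reads in the swd22 deletion, 4740 in the ssu72 deletion and 934 in the clr4 deletion, and Tf2-10 held 266, 308 and 142. Tf2-2 held 80 and 174 reads in the swd22 and ssu72 deletions and 48 in the clr4 deletion, and Tf2-13 held 156, 256 and 101. Tf2 copies are near-identical, so the split between them is uncertain. On the scale of library totals the ssu72 deletion was the highest of the 3 in all but Tf2-10. Of 13 iron acquisition genes 2 were higher and none lower, with a median of 0.42 that was 0.092 without the ssu72 deletion. The cell-surface heme protein gene shu1 held 82 reads in the swd22 deletion, 1024 in the ssu72 deletion and 54 in the clr4 deletion. The iron oxidase gene fio1 held 1366, 3096 and 840 reads, and the permease gene fip1, at 0.78, was not called.

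The genes of the silencing and RNA processing machinery were not called. None of the 6 CLRC, 5 HP1 and chromodomain, 10 RNA interference and 8 SHREC and deacetylase genes reached the call. Their medians were 0.11, 0.16, 0.067 and 0.026. The heterochromatin protein gene swi6 held 3631 reads in the swd22 deletion, 3729 in the ssu72 deletion and 3601 in the clr4 deletion. The widest of these members was arb2, an argonaute-binding protein gene, with 571, 446 and 890 reads in the swd22, ssu72 and clr4 deletions. None of 18 CPF and cleavage factor genes was called, since swd22 and ssu72 were each low in 1 CPF deletion only. The termination genes (6), the nuclear RNA elimination genes (14) and the telomere-binding genes (8) had medians of -0.093, 0.014 and 0.0215. The 13 meiotic transcripts that the elimination machinery is known to target had a median of 0.078, none was called, and the largest was mcp5 at 0.78.

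Other gene classes held few calls or none. None of 131 ribosomal protein genes was called, with a median of 0.0078 and a range of -0.53 to 0.56. The sign of that median followed the library, at -0.096 without the ssu72 deletion and 0.0985 without the swd22 deletion. The 11 histone genes had a median of -0.32, led by the histone H4 gene hhf1 at -0.74. Replication and division genes had a median of -0.52, with 2 lower of 22 (9.09%), beside 2.77% lower over all features. Among the 2 was adg1, with 988 reads in the swd22 deletion, 1615 in the ssu72 deletion and 2934 in the clr4 deletion. All 6 M-cell and both P-cell marker genes were measured in these cultures. Of them only mfm1, an M-factor pheromone precursor gene, was called, with 27 and 18 reads in the swd22 and ssu72 deletions and 62 in the clr4 deletion. The sulfur (9), sterol (19), zinc (7) and marker gene (8) lists held no call, with medians of -0.0285, 0.0078, 0.0231 and 0.38. Among the marker genes ura4 stood at -0.92 and arg3 at 0.995, just under the threshold. None of 17 mating and sexual differentiation genes was called; their median of -0.28 turned to 0.11 without the ssu72 deletion. Nor was any of 3 CENP-B homologues (-0.16), 7 snRNAs (-0.37) or 35 features of the mitochondrial genome (0.063) called. Of 10 flocculin and cell surface genes pfl9 alone was called, higher at 1.06.

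**Figure D5:**
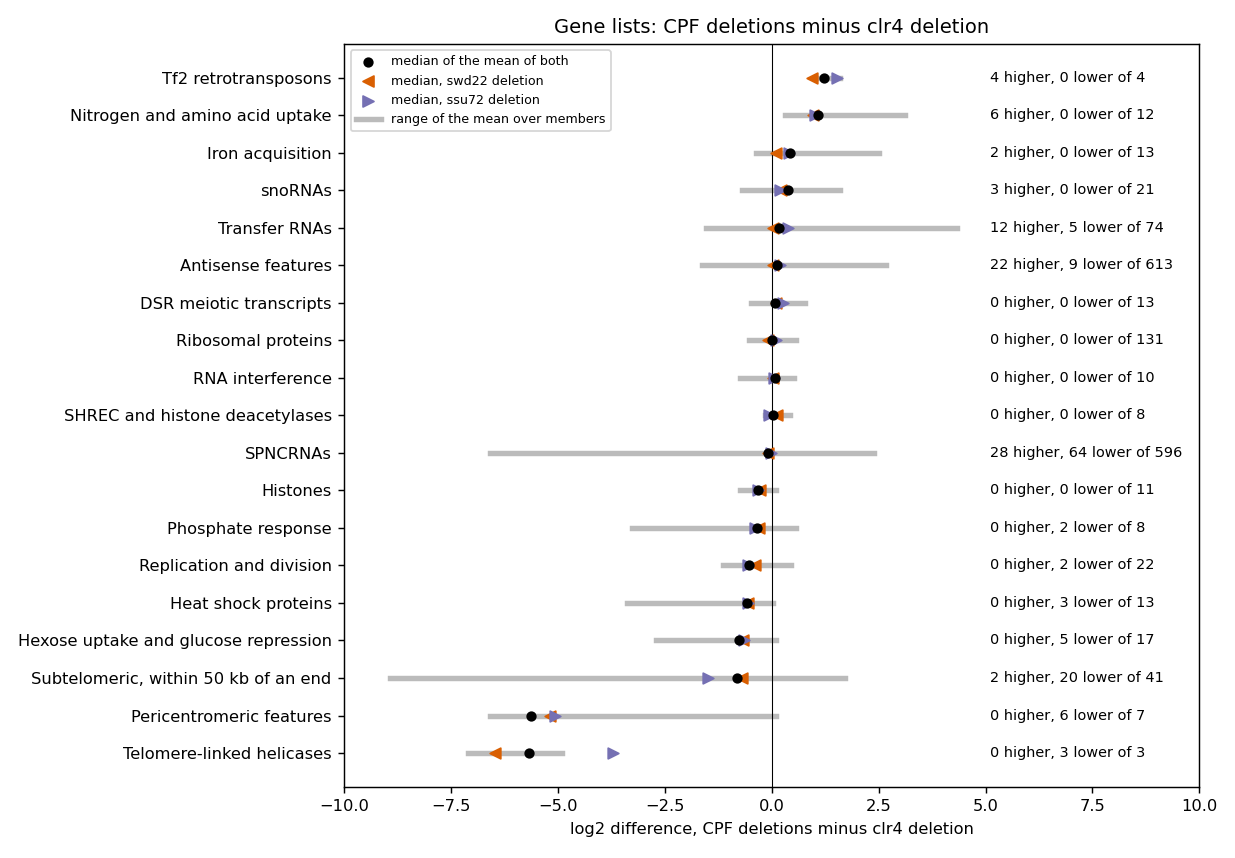
Log2 difference of the CPF deletions from the clr4 deletion (x axis) for 19 gene lists: black points are medians of the mean of both CPF deletions, triangles the medians of each CPF deletion, and grey bars the range of the mean over measured members. The counts at the right are members called higher and lower; Tf2 and nitrogen genes lie to the right of 0 and helicase and pericentromeric features farthest to the left.

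The 596 measured SPNCRNAs gave 28 higher (4.70%) and 64 lower (10.7%) calls and had a median of -0.078. All 793 measured noncoding transcripts, of which they are part, gave 5.8% higher and 9.58% lower calls, and all features 1.98% and 2.77%. The shares of SPNCRNAs thus lay near those of noncoding transcripts. Of these 596, 25 were measured only through the clr4 deletion and 21 only through a CPF deletion, and the 550 others gave 16 higher and 44 lower calls. SPNCRNA.863 held 357 reads in the swd22 deletion and 674 in the ssu72 deletion, against 3179 in the clr4 deletion. In the other direction prl15 held 269 reads in the swd22 deletion, 109 in the ssu72 deletion and 24 in the clr4 deletion. Of the 85 lower noncoding features 13 (15.3%) lay within 500 bases of a coding feature that was lower, against 53 of all 1406 measured noncoding features (3.77%). In 7 of these 13 pairs the features overlap or touch, so their reads may not be separate, and 3 of the 13 were measured only through the clr4 deletion. For the higher ones it was 4 of 68 (5.88%), against 47 of 1406 (3.34%).

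The 613 measured antisense features gave 22 higher (3.59%) and 9 lower (1.47%) calls and had a median of 0.12, beside 1.98% higher and 2.77% lower over all features. SPAC27F1.10-antisense-1 held 113 reads in the swd22 deletion and 128 in the ssu72 deletion, against 20 in the clr4 deletion. SPCC1827.07c-antisense-1 held 1722 and 2033 reads in the swd22 and ssu72 deletions and 442 in the clr4 deletion. The antisense feature of bst1, a gene beside swd22, held 361 reads in the swd22 deletion, 128 in the ssu72 deletion and 53 in the clr4 deletion. For 20 of the 22 higher antisense features the sense gene could be looked up by name. Of these 20 sense genes 18 were not called, and their median was -0.09. The exceptions were rem1, which was higher together with its antisense feature, and slx4, with 207, 305 and 695 sense reads and 533, 616 and 229 antisense reads in the swd22, ssu72 and clr4 deletions. At slx4 the CPF deletions were thus low in sense and high in antisense reads. For the lower antisense features 8 sense genes could be looked up, of which 7 were not called. The exception was SPAC11D3.18c, with a mean difference of 1.13 in sense and -1.62 in antisense. Over all features 4.75% were called either way.

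Small RNA genes gave scattered calls. Of 168 transfer RNA genes 74 could be measured, and 12 of these were called higher (16.2%) and 5 lower (6.76%), with a median of 0.16. Over all features the shares were 1.98% and 2.77%. Of the 74, 7 were measured only through a CPF deletion and 1 only through the clr4 deletion, and the 66 others gave 8 higher and 4 lower calls. The highest, SPBTRNATYR.02, was measured only through the CPF deletions. It held 27 reads in the swd22 deletion, 54 in the ssu72 deletion and 2 in the clr4 deletion. Transfer RNA genes occur in near-identical copies, so the split of their reads is uncertain. Of 21 snoRNAs 3 were higher, among them snoR69b with a mean difference of 1.33. The mitochondrial 15S_rRNA stood high in the swd22 deletion alone, with 19054 reads there, 9725 in the ssu72 deletion and 8081 in the clr4 deletion.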

How the data were processed

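RNA was sequenced from 4 cultures, of which the swd22, ssu72 and clr4 deletions were compared. Per the submitters' processing notes, the authors used Trimmomatic and STAR. Genome build, annotation, strand setting and the program that made the ratios were not given in the sources used here. The authors deposited, per the file headers, a log2 ratio and a p-value for 7015 features per library, each against 1 shared library that the files do not name. The p-values follow a random-sampling model of 2 libraries, and ratio and p-value together gave whole read counts for 6565 features. For 88 more, counts came from the ratios alone, as the smallest whole numbers that fit, and 362 had a ratio of 0 in every file. The library labelled wild type served only to fix the reads of the unnamed library. In each file 100% of the low estimates (1051 to 1128 features) lay within 0.05 of a whole number. A ratio of 0 beside 0 reads in the unnamed library leaves a count of at most 4 open. This concerned 15 to 25 features per library.

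Differences are log2 ratios on the scale of library totals, with 0 as 0.5 reads. Scaling, read filter, added reads, the call rule and leaving out each CPF library were varied. Recovery and calling were first tested on simulated data that held counting error only. There a true 2-fold rise was called in 34% of 50 features and a true 2-fold fall in 78% of 50. True 4-fold changes were called in 100% each way, and unchanged features in 0.275%. Calling at the threshold was thus uneven between directions in that simulation. Without molecular identifiers reads may repeat 1 molecule, and intervals and floors cover counting error only.

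Members and lists were chosen with earlier results of these data known. Named were the deleted genes, the 12 coding and 6 noncoding features with the largest mean difference each way among calls with at least 50 reads, up to 3 members per list and direction (all of lists with up to 8 measured), and the 6 coding features on opposite sides. Other features, such as SPBC8E4.02c, ecl3, vtc2, SPNCRNA.811, hsp3101, psi1, zwf2, dak2, rsv1, urg2, urh1, agp3, gdh2 and slx4, were chosen after their values were seen. From the lists, 7 names were left out whose description in the files is that of another protein. Of 5124 coding features on the 3 chromosomes 5006 matched RefSeq (ASM294v3) by name, and 99.3% of these had an identical start or end, so its sequence was used. Analyses used Python 3.11.15, numpy 2.4.6, pandas 2.3.3 and scipy 1.17.1. One called member of the replication and division list is not reported here by name.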

Additional observations from a re-analysis of the deposited data

Results flagged for a closer look

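In 7 coding features the 2 CPF deletions lay on opposite sides of the clr4 deletion, each by at least 2-fold. The difference between the CPF deletions was not tested, since each is 1 library. The 6 with the largest gap among those with at least 50 reads are given. For SPAC186.06 the swd22 deletion had 759 reads, the ssu72 deletion 55 and the clr4 deletion 378, a gap (swd22 minus ssu72) of 4.08 on the log2 scale. The flocculin genes pfl8 and pfl7 had 1082 and 213 reads in the swd22 deletion, 166 and 35 in the ssu72 deletion, and 473 and 85 in the clr4 deletion, with gaps of 2.99 and 2.90. SPAC977.02 had 55, 9 and 30 reads in the swd22, ssu72 and clr4 deletions, a gap of 2.90. The meiosis regulator gene mei2 had 3858, 726 and 1433 reads in the swd22, ssu72 and clr4 deletions, a gap of 2.70. Only the iron transporter gene str3 of these 6 went the other way, with 29 reads in the swd22 deletion, 340 in the ssu72 deletion and 78 in the clr4 deletion, a gap of -3.26.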

How the results depend on the processing

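No paired analysis was possible because each genotype has 1 library and the labels give no replicate numbers. The 128 higher and 179 lower features became 74 and 108 when each CPF deletion had to reach 2-fold, and 16 and 46 when the mean had to reach 4-fold. Median-of-ratios scaling gave 117 and 195, no read filter 157 and 213, a minimum of 50 reads 104 and 121, and 2 reads added to every count 118 and 160. Open counts set to 4 reads, an alternative chosen after seeing the data, gave 127 and 178. Leaving out 1 CPF deletion gave 146 to 158 higher and 204 to 217 lower features; 99 to 103 of the 128 and 142 to 145 of the 179 were among them. Median-of-ratios scaling shifted the median of all features by -0.043 and moved the heat shock list to -0.63. A minimum of 50 reads moved the list within 50 kb of an end to -2.76 and the snoRNA list to 0.13. The 2 added reads moved the pericentromeric list to -3.93. Leaving out 1 CPF deletion in turn gave list medians of -6.47 to -3.71 (helicase), -0.23 to -0.15 (core stress), 0.18 to 0.21 (snoRNA), 0.96 to 1.004 (nitrogen), 0.092 to 0.39 (iron), -0.56 to -0.39 (replication and division), -0.31 to -0.27 (histone), -1.50 to -0.69 (within 50 kb of an end), -0.45 to 0.11 (mating), -0.096 to 0.0985 (ribosomal protein), 0.089 to 0.26 (meiotic), 0.036 to 0.37 (transfer RNA), -0.097 to -0.015 (SPNCRNA) and 0.031 to 0.19 (antisense). The causes were not tested. Of the calls, 24 higher and 58 lower features held under 50 reads.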

Other observations

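The 3 measured features of the mating-type region of chromosome II were low in all 3 deletions relative to the unnamed reference library. The ribosomal protein gene rpp202 held 84 reads in the swd22 deletion, 105 in the ssu72 deletion and 141 in the clr4 deletion, and the unnamed library held 33188. SPBC23G7.14 held 9, 16 and 8 reads in the swd22, ssu72 and clr4 deletions, against 1385. The proteasome gene rpt6 held 785, 766 and 411 reads in the swd22, ssu72 and clr4 deletions, against 4573. None of the 3 was called between the CPF deletions and the clr4 deletion. The list of this region also takes in a separate mating-type sequence. Whether copies there share reads with these features was not tested, so the low reads need not mean low transcripts.

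Features annotated as ribosomal RNA separated the CPF deletions. SPRRNA.53 held 385 reads in the swd22 deletion and 2 in the ssu72 deletion, against 77 in the clr4 deletion, and SPRRNA.52 held 1962, 191 and 1317 reads in the swd22, ssu72 and clr4 deletions. These are repeated copies that can share reads.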
